A study of Mus musculus with 27 samples.

Results

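Dnmt1, Uhrf1, Dnmt3a, Dnmt3b, Dnmt3l, Tet1, Tet2 and Tet3 encode the enzymes, with their direct cofactors, that write, copy and oxidise methylated cytosine in mouse DNA. These genes were chosen by name, and all 8 were found, through their Ensembl identifiers, among the 38123 genes of the deposited tables. Methyl groups on CpG dinucleotides are copied to the new strand after replication by Dnmt1, which Uhrf1 brings to hemimethylated sites. New methylation is set by Dnmt3a and Dnmt3b, and Dnmt3l, which has no catalytic activity of its own, stimulates both. The Tet enzymes oxidise methylcytosine to hydroxymethylcytosine and beyond, which leads to its removal by dilution or by base excision. Mouse embryonic stem cells are known for high Dnmt3b, Dnmt3l and Tet1 and for little Tet3.

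The RNA came from mouse embryonic stem cells of the XY DTCM23/49 lines, which carry a conditional Dicer allele and were kept on gelatin with serum and leukemia inhibitory factor. Dicer cuts microRNA precursors, and 800 nM 4-hydroxytamoxifen removed its RNase III domain, after which colonies lacking Dicer were selected and expanded. Polyadenylated RNA was sequenced in 9 groups of 3 libraries: whole cells at day 0 and at days 4, 8, 10 and 12 after it, nuclei at days 12 and 0, and cytoplasm at days 12 and 0, each from this same line. Ethanol at 0.1% is named as the control treatment, but no library after day 0 carries that label, so loss of Dicer, drug, time in culture and selection of colonies cannot be told apart. The labels call the libraries biological replicates without saying whether they came from separate cultures, and p-values measure only the spread between these libraries.

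Levels are FPKM, fragments per kilobase of transcript scaled to library depth, as the authors deposited them. They are relative within a library, and in bulk RNA fewer cells of a type and less RNA per cell cannot be told apart. Changes are differences of log2(FPKM + 0.5), which understate the change of low genes, with the SE and the Benjamini-Hochberg adjusted p of limma over all genes tested. A gene is called where that p is under 0.05. Statements that groups do or do not overlap describe 3 libraries per group and are not tests. The share of all genes without overlap was counted only for whole cells against fractions at day 0.

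Dicer1 itself averaged 16.3 FPKM in whole cells at day 0, and 1.41, 1.71 and 1.83 FPKM at days 4, 8 and 10. In the whole cell libraries labelled day 12 it stood at 16.7, 13.8 and 13.4 FPKM, against 15.01, 16.02 and 17.9 FPKM at day 0. These 3 libraries go against their label and are called "labelled day 12" throughout. Their files also list the genes in another order than those of all other libraries, and give values with up to 15 digits, against up to 10 in the others. Whether the label or the library is in error was not tested. In the fractions Dicer1 fell as labelled, to 4.20 FPKM in nuclei at day 12 against 13.3 FPKM in nuclei at day 0, and to 3.06 FPKM in cytoplasm at day 12 against 22.5 FPKM in cytoplasm at day 0. FPKM sums were 275545 to 459892 per library, and relative depth, read from the steps between low values with replicate 1 of whole cell day 4 set to 1, was 0.732 to 3.61. It was 0.732 to 1.11 in all whole cell libraries after day 0, against 3.03 to 3.61 at day 0, so depth and day cannot be told apart in any whole cell change from day 0. All 10 embryonic stem cell markers (Pou5f1, Nanog and others) reached 1 FPKM in every group.

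Replicate 3 of whole cell day 4, replicate 3 of nucleus day 0 and replicate 1 of nucleus day 12 stood apart from their groups. Their mean correlation with their own replicates was 0.883 to 0.927, the 3 lowest values of all libraries. It was 0.992 to 0.995 in the 18 libraries of the other 6 groups. In the remaining libraries of the same groups, whose replicates include those standing apart, it was 0.929 to 0.965. The 3 libraries also differed by transcript length. Relative to their replicates, genes over 6 kb stood below those under 2 kb by a median of -1.21 in whole cell day 4 replicate 3 and -1.28 in nucleus day 0 replicate 3 on the log2 scale, and above by 0.86 in nucleus day 12 replicate 1. The same difference was -0.23 to 0.28 in the other 6 groups. It was -0.55 to 0.77 in the remaining libraries of the same groups, each measured against replicates that include the library standing apart. Longest coding transcripts of the members run from 1.82 kb for Dnmt3l to 14.4 kb for Tet1, and Tet1 stood at -1.53, -1.33 and 1.09 relative to its replicates in these 3 libraries, in the same order. The 2 shortest members moved little with them: Dnmt3l stood at -0.02, 0.16 and 0.13, and Uhrf1 at -0.10, 0.06 and 0.10. Dnmt3b, 4.32 kb long, stood at -0.62, -1.80 and 0.96, beyond the medians of -0.48, -0.32 and 0.18 for genes of 4 to 6 kb. Where leaving out the 3 libraries that stood apart makes or ends a call, or turns a direction given here, the value without them follows. Such a fit keeps 2 libraries in each of their groups. The 3 were chosen after seeing the data, for their distance from their replicates, so the choice itself lowers the spread. The p-values and counts without them are therefore not comparable with those of all libraries. Whether the libraries kept match in length profile between groups was not tested.

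**Figure D1:**
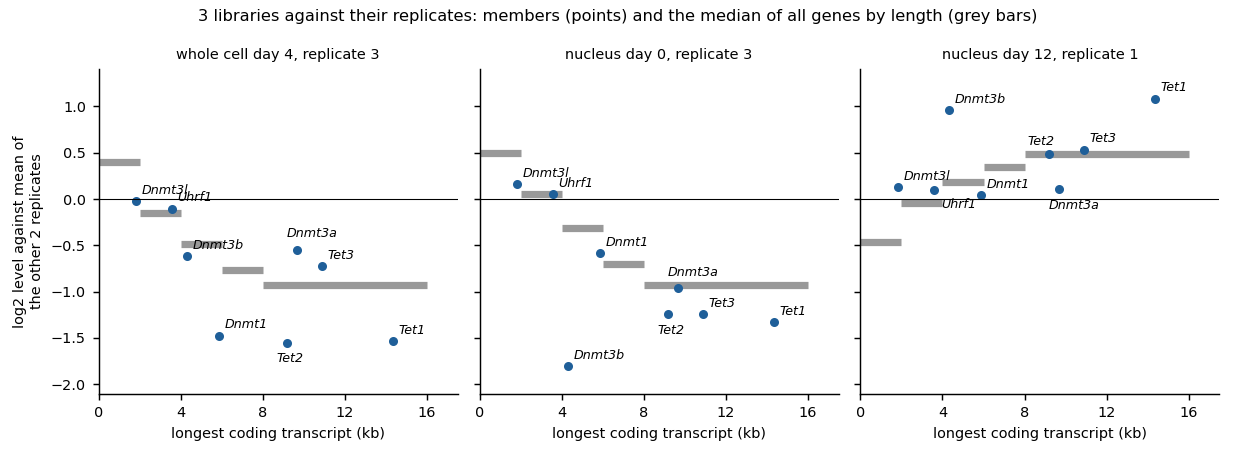
The level of each member in the 3 libraries that stood apart, as log2 difference from the mean of the other 2 replicates (vertical axis), against its longest coding transcript in kb (horizontal axis). Grey bars are the medians of all genes of that length, the last bar standing for every gene over 8 kb. Long transcripts are low in the first 2 panels (Tet1 at -1.53 and -1.33) and high in the third (Tet1 at 1.09).

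The members differ widely in the length of their 3′ untranslated regions, where microRNAs pair. In the GENCODE M21 annotation on GRCm38 the 3′ UTR of the longest coding transcript ran from 273 bases in Dnmt3l and 312 in Dnmt1 over 984 in Uhrf1, 1331 in Dnmt3b and 3058 in Tet2 to 5669 in Tet3, 6696 in Dnmt3a and 7962 in Tet1. Each was searched on its own strand for perfect 7-base matches to the seeds (bases 2 to 8) of 7 microRNA families. The miR-29 family is known to target the de novo methyltransferases in human cells, and the miR-290 and miR-302 family is the most abundant in mouse embryonic stem cells. MicroRNAs were not measured in these libraries. The mature sequences from RefSeq (GRCm38.p6) follow, with the seed in capitals, 2 from each of these families to show the shared seed:
mmu-miR-29a-3p: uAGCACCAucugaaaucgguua
mmu-miR-29b-3p: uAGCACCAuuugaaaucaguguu
mmu-miR-294-3p: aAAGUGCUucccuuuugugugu
mmu-miR-302b-3p: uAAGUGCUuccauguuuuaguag

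The miR-29 match TGGTGCT stood 5 times in the Dnmt3a UTR, 1 time in Dnmt3b, 7 times in Tet1, 5 times in Tet2 and 8 times in Tet3, and not in Dnmt1, Uhrf1 or Dnmt3l. Long UTRs hold more matches by length alone. Of UTRs 0.8 to 1.25 times as long, 0.783% of 511 held as many as Dnmt3a, 0.325% of 308 as many as Tet1, 0.0833% of 2400 as many as Tet2 and 0.130% of 768 as many as Tet3, each count with the gene itself included. For Dnmt3b the share with at least its single match was 12.2% of 3108. Of all 21027 UTRs, 13.1% held the match. The miR-290 and miR-302 match AGCACTT stood in 3 members, 2 times in Tet1, 1 time in Tet2 and 3 times in Tet3, and in 14.7% of all UTRs. Of UTRs of like length 25.3% held as many as Tet1, 30.8% as many as Tet2 and 5.08% as many as Tet3. Dnmt3l held no match to any of the 7 families, and Tet3 held 17 matches to 6 of them. The match of the miR-17 family, GCACTTT, overlaps AGCACTT. In Tet3 the miR-17 matches at UTR positions 193 and 1825 overlap the miR-290 and miR-302 matches at 192 and 1824. The same holds in Tet1, at positions 641 and 640, and in Tet2, at positions 817 and 816. These places count for both families. A match of letters is a description and not a tested site. The matches below, in capitals, are those nearest the stop codon in each member that has one, on GRCm38 in the sense of the transcript:
Dnmt3a miR-29 match, chr12:3908561-3908589, plus strand: cgacttcataaTGGTGCTttcaaaacagc
Dnmt3b miR-29 match, chr2:153686616-153686644, plus strand: gtagcccggcaTGGTGCTcatgttctctt
Tet1 miR-29 match, chr10:62812199-62812227, minus strand: accatagagtcTGGTGCTttcccccgggt
Tet2 miR-29 match, chr3:133466322-133466350, minus strand: gcaggatcatcTGGTGCTgacgtatgatg
Tet3 miR-29 match, chr6:83367974-83368002, minus strand: gagctgctctgTGGTGCTtttgccctcat
Tet1 miR-290 and miR-302 match, chr10:62811875-62811903, minus strand: atattttaaaaAGCACTTtctacttttaa
Tet2 miR-290 and miR-302 match, chr3:133465904-133465932, minus strand: tgtcttagaaaAGCACTTtgcctacctaa
Tet3 miR-290 and miR-302 match, chr6:83367833-83367861, minus strand: tcttcttccccAGCACTTtgaagaaacta

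Some members share their locus with other genes, and the strand setting of the counting is not given in the sources used here, so reads of overlapping genes cannot be told apart. Aire, on the strand opposite to Dnmt3l, had 1.68 to 22.8 FPKM over the 27 libraries, with a median of 5.72. Gm26479, a small nuclear RNA gene that overlaps Tet1 on the same strand, reached 12.95 FPKM, with a median of 0.708. The antisense genes Dnmt3aos and Dnmt3bos reached at most 0.112 and 1.00 FPKM, and the pseudogene Dnmt3l-ps1 at most 0.303 FPKM.

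In whole cells 4 members were lower at day 10 than at day 0. Dnmt3b fell to 33.8% of its day 0 mean by day 10 and Dnmt3l to 56.6%, Dnmt3a fell to 67.6%, and Uhrf1 fell to 77.9%. With all libraries no change was called at any day for Dnmt1, Tet1 or Tet2, whose replicates spread widely at day 4, and Tet3, the lowest member, rose at day 8 alone. At day 10, 4 of 8 members were called, all lower, where 43.7% of the 15991 genes tested were called, 27.7% higher and 16.0% lower. The median change of the members was -0.34, against 0.09 over all genes tested. The F-test over the 5 days called 5 of 8 members (Dnmt3a, Dnmt3b, Dnmt3l, Uhrf1 and Tet3, with an adjusted p of 0.046 for Tet3), where 54.2% of genes were called. Without the libraries that stood apart it called all 8, where 71.8% of genes were called.

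**Figure D2:**
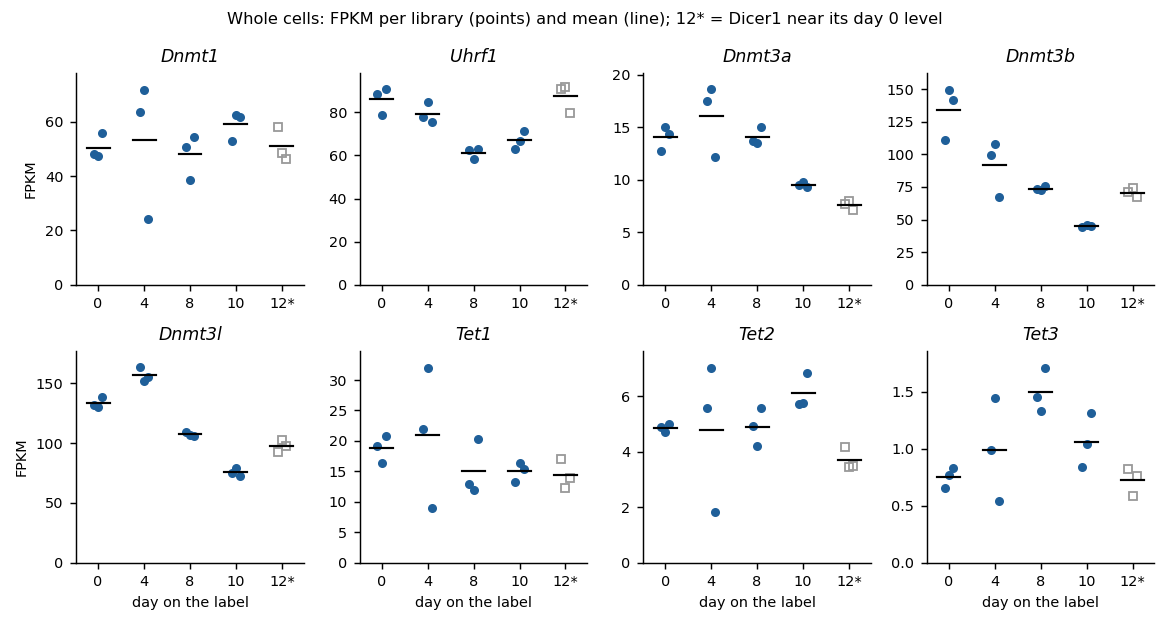
FPKM of each member in whole cells (vertical axis, from 0) by the day on the label (horizontal axis). Points are the 3 libraries of a day, lines their mean, and open grey squares the libraries labelled day 12, in which Dicer1 is near its day 0 level. Dnmt3b lies at 111 to 149 FPKM at day 0 and at 44.3 to 46.0 FPKM at day 10, with no overlap.

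Dnmt1, the maintenance methyltransferase, had 48.1, 47.3 and 55.8 FPKM at day 0, then 63.6, 71.8 and 24.0 at day 4, 50.8, 38.7 and 54.5 at day 8, 53.0, 62.6 and 61.6 at day 10, and 58.1, 48.6 and 46.2 in the libraries labelled day 12. Replicate 3 of day 4 lay under every other whole cell library, and the ranges of the other groups overlapped day 0. The difference from day 0 was -0.07 ± 0.30 (SE, adjusted p = 0.94) at day 4 and 0.23 ± 0.30 (SE, adjusted p = 0.582) at day 10. Without replicate 3 of day 4 the day 4 difference was 0.42 (adjusted p = 0.0804). Uhrf1, which reads hemimethylated CpG, had 88.6, 78.9 and 90.7 FPKM at day 0, 77.7, 85.0 and 75.6 at day 4, 62.6, 58.3 and 62.8 at day 8, 63.1, 66.5 and 71.6 at day 10, and 91.0, 91.8 and 79.7 in the libraries labelled day 12. All 6 libraries of days 8 and 10 lay under all 3 of day 0. Uhrf1 fell at day 8 by 0.49 on the log2 scale (SE 0.08, adjusted p = 0.000755) and at day 10 by 0.36 (SE 0.08, adjusted p = 0.00391). With every library scaled to an equal sum the day 10 call was lost (adjusted p = 0.0943).

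Dnmt3a, the de novo enzyme with the lower level here, had 12.8, 15.03 and 14.4 FPKM at day 0, 17.501, 18.6 and 12.2 at day 4, 13.7, 13.5 and 15.02 at day 8, 9.53, 9.74 and 9.26 at day 10, and 7.64, 7.93 and 7.15 in the libraries labelled day 12. The day 10 and labelled day 12 libraries all lay under day 0. Its change was -0.54 ± 0.13 (SE, adjusted p = 0.00442) at day 10, a call lost with libraries scaled to an equal sum (adjusted p = 0.0638). At day 4 the difference was 0.17 ± 0.13 (SE, adjusted p = 0.555), and without replicate 3 of that day Dnmt3a was called higher, by 0.35 (adjusted p = 0.0123).

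Dnmt3b, which methylates CpG islands and repeats in the early embryo, had 111, 149 and 142 FPKM at day 0, 99.6, 108 and 67.4 at day 4, 73.2, 72.6 and 75.7 at day 8, 44.3, 46.0 and 45.4 at day 10, and 71.4, 73.9 and 66.9 in the libraries labelled day 12. Every later library lay under every day 0 library. The change was -0.56 ± 0.15 (SE, adjusted p = 0.0396) at day 4, -0.84 ± 0.15 (SE, adjusted p = 0.000867) at day 8 and -1.54 ± 0.15 (SE, adjusted p = 3.32e-06) at day 10. The calls at days 8 and 10 held under each of the 27 alternatives run. The call at day 4 held under 9 of 27, with an adjusted p of up to 0.368, and the difference was -0.35 (adjusted p = 0.0395) without replicate 3 of that day.

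Dnmt3l, the cofactor, had 132, 131 and 138 FPKM at day 0, 164, 152 and 156 at day 4, 109, 107 and 106 at day 8, 75.2, 79.6 and 72.2 at day 10, and 92.8, 102 and 97.8 in the libraries labelled day 12. No later group overlapped day 0. It differed by 0.23 ± 0.06 (SE, adjusted p = 0.0458) at day 4, a rise called under 7 of 27 alternatives. It then fell, with -0.32 ± 0.06 (SE, adjusted p = 0.0023) at day 8, a call lost among protein-coding genes scaled to an equal sum (adjusted p = 0.0604), and -0.82 ± 0.06 (SE, adjusted p = 5.68e-07) at day 10. Dnmt3b and Dnmt3a moved in unequal measure: the ratio of their FPKM was 9.49 ± 0.695 at day 0, 5.69 ± 0.137 at day 4, 5.26 ± 0.191 at day 8, 4.76 ± 0.129 at day 10 and 9.34 ± 0.0177 in the libraries labelled day 12 (SD, n = 3 each). The whole cell ratios of days 4 to 10 all lay under those of day 0 and of the libraries labelled day 12. In the fractions the ratio was lower than in whole cells already at day 0. It was 4.00 ± 1.21 in nuclei and 6.45 ± 0.361 in cytoplasm at day 0 (SD, n = 3 each). At day 12 it was 2.43 ± 0.919 in nuclei and 5.11 ± 0.208 in cytoplasm.

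Tet1, the main oxidase of these cells, had 19.2, 16.3 and 20.8 FPKM at day 0, 21.97, 31.96 and 8.98 at day 4, 12.9, 12.0 and 20.2 at day 8, 13.2, 16.4 and 15.4 at day 10, and 17.0, 12.3 and 13.9 in the libraries labelled day 12. The spread at day 4 covers that of all other groups. No day was called, with -0.01 ± 0.34 (SE, adjusted p = 0.998) at day 4 and -0.31 ± 0.34 (SE, adjusted p = 0.49) at day 10. Without replicate 3 of day 4 the day 4 difference was 0.49 (adjusted p = 0.173), and with only days 10 and 0 fitted the day 10 difference was called (adjusted p = 0.0418). Tet2, another oxidase, had 4.89, 4.70 and 5.01 FPKM at day 0, 5.57, 7.01 and 1.82 at day 4, 4.93, 4.21 and 5.58 at day 8, 5.73, 5.77 and 6.85 at day 10, and 4.18, 3.44 and 3.496 in the libraries labelled day 12. Day 10 lay above day 0 without overlap and the labelled day 12 group below it. The day 10 difference was 0.30 ± 0.31 (SE, adjusted p = 0.47), and without replicate 3 of day 4 it was called at the same size (adjusted p = 0.0419), as it was with only days 10 and 0 fitted (adjusted p = 0.0211). At day 4 it was -0.18 ± 0.31 (SE, adjusted p = 0.814), and 0.33 (adjusted p = 0.126) without that replicate.

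Tet3, known mainly from the oocyte and from differentiated cells, had 0.660, 0.767 and 0.834 FPKM at day 0, 0.988, 1.44 and 0.542 at day 4, 1.46, 1.33 and 1.71 at day 8, 0.836, 1.04 and 1.31 at day 10, and 0.825, 0.588 and 0.761 in the libraries labelled day 12. All libraries of days 8 and 10 lay above day 0. For day 10 the margin was slight, with 0.8356 FPKM in its lowest library and 0.8339 FPKM in the highest of day 0. The rise at day 8 was 0.67 ± 0.20 (SE, adjusted p = 0.0228), called under 21 of 27 alternatives, and day 10 was not called (0.31 ± 0.20 SE, adjusted p = 0.237). Without replicate 1 of day 0 the day 8 difference was 0.62 (adjusted p = 0.0803), without replicate 2 it was 0.68 (adjusted p = 0.0546), and without day 8 replicates 1 and 3 in turn it was 0.68 and 0.60 (adjusted p of 0.054 and 0.0836).

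At day 4, 2 of 8 members were called, where 6.70% of genes were called, 1 higher and 1 lower. At day 8, 4 of 8 were called, 1 higher and 3 lower, where 29.8% of genes were called. The balance of all genes depended on the scaling: the share of called genes that were higher at day 10 was 63.4%, against 53.3% with median-of-ratios scaling and 44.5% after quantile normalization, and at day 8 it was 67.7%, against 56.3% and 46.3%. At day 4 it was 72.8%, and 56.1% after quantile normalization. The direction of each member called at days 4, 8 and 10 was the same under all of these scalings.

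In the libraries labelled day 12, 3 of 8 members were called against day 0, all lower, where 13.6% of genes were called (75.4% of them higher, 56.2% with median-of-ratios scaling and 45.1% after quantile normalization). The difference was -0.85 ± 0.13 (SE, adjusted p = 0.000747) for Dnmt3a, -0.91 ± 0.15 (SE, adjusted p = 0.00132) for Dnmt3b and -0.45 ± 0.06 (SE, adjusted p = 0.000416) for Dnmt3l, in libraries whose Dicer1 level differed from day 0 by -0.15 ± 0.16 on the log2 scale (SE). For Tet2 it was -0.35 ± 0.31 (SE, adjusted p = 0.503), called without the libraries that stood apart (adjusted p = 0.0358). Set against day 10, Dnmt3b was higher in the libraries labelled day 12 by 0.64 (SE 0.15, adjusted p = 0.00359), Dnmt3l by 0.37 (SE 0.06, adjusted p = 0.00049) and Uhrf1 by 0.38 (SE 0.08, adjusted p = 0.00256). These are 3 of 8 members, where 45.8% of genes were called, 45.0% of them higher (34.5% among protein-coding genes scaled to an equal sum). Dnmt3a and Tet2 differed the other way, at -0.31 ± 0.13 (SE, adjusted p = 0.0658) and -0.65 ± 0.31 (SE, adjusted p = 0.103). Both were called without the libraries that stood apart (adjusted p of 0.0023 and 0.000347), which made 5 of 8 where 58.7% of genes were called, and with only the groups compared (adjusted p of 0.00643 and 0.00168). With libraries scaled to an equal sum Dnmt3b (adjusted p = 0.0578) and Uhrf1 (adjusted p = 0.114) lost that call.

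**Figure D3:**
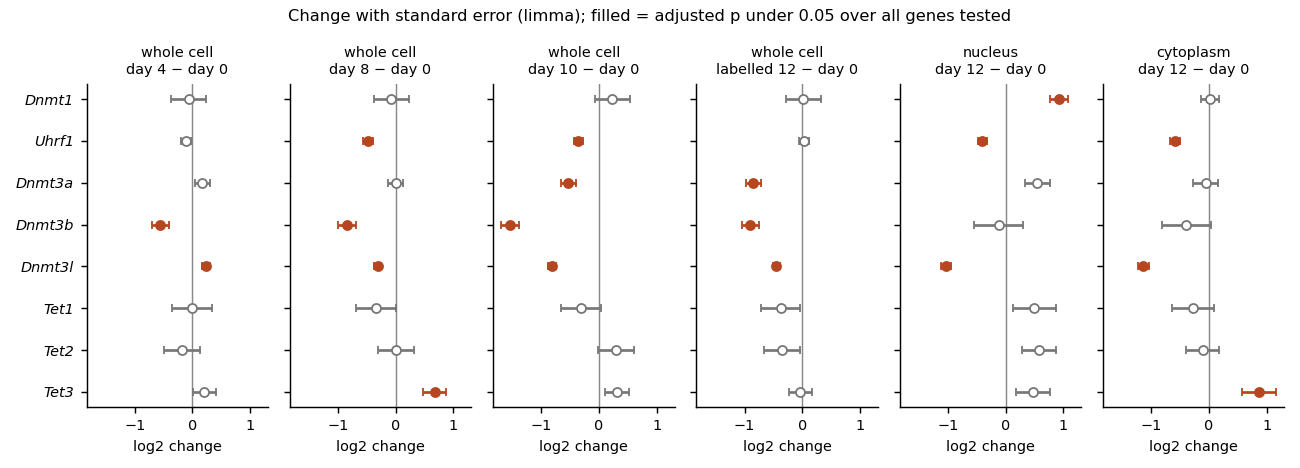
Change of each member against day 0 of the same extract, as difference of log2(FPKM + 0.5) with its SE (horizontal axis). Filled red points have an adjusted p under 0.05 over all genes tested. Dnmt3l is called in all 6 comparisons, higher at day 4 (0.23) and lower in the others. Uhrf1 is called lower in 4, and Dnmt3b is called lower in every whole cell comparison. Dnmt1 is called in the nucleus alone, at 0.93.

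In the fractions Dnmt3l fell to 47.8% of its day 0 mean in nuclei and to 45.1% in cytoplasm, Uhrf1 fell in both, Dnmt1 rose in the nucleus, and Tet3 rose in the cytoplasm. At day 12 against day 0, 3 of 8 members were called in the nucleus, where 36.7% of the 17124 genes tested were called (15.1% higher and 21.6% lower), and 3 of 8 in the cytoplasm, where 32.6% were called (16.0% higher and 16.6% lower). Without the libraries that stood apart 5 of 8 were called in each, where 56.5% of genes were called in the nucleus and 59.5% in the cytoplasm. The members' median change was 0.49 in the nucleus and -0.19 in the cytoplasm, against -0.10 and -0.01 over all genes tested. In the nucleus 41.2% of called genes were higher, and 53.0% with libraries scaled to an equal sum.

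Dnmt1 had 81.5, 75.0 and 83.7 FPKM in nuclei at day 12, against 44.9, 50.8 and 31.8 FPKM in nuclei at day 0, with no overlap. The rise was 0.93 ± 0.15 (SE, adjusted p = 0.00119), and 0.72 (adjusted p = 0.000233) without the libraries that stood apart. In cytoplasm it had 65.8, 65.1 and 70.6 FPKM at day 12, against 72.5, 61.5 and 64.5 FPKM at day 0, ranges that overlap (0.02 ± 0.15 SE, adjusted p = 0.946). Uhrf1 had 51.8, 47.2 and 49.7 FPKM in nuclei at day 12, against 66.0, 63.5 and 67.4 FPKM in nuclei at day 0, and in cytoplasm 69.3, 69.4 and 68.0 FPKM at day 12, against 108, 101 and 103 FPKM at day 0. Neither pair overlapped. It fell by 0.40 (SE 0.08, adjusted p = 0.00429) in the nucleus and by 0.59 (SE 0.08, adjusted p = 0.000452) in the cytoplasm on the log2 scale, and the nuclear call was lost with libraries scaled to an equal sum (adjusted p = 0.235) or with only the nuclear groups fitted (adjusted p = 0.107).

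Dnmt3a had 6.06, 5.27 and 5.89 FPKM in nuclei at day 12, against 5.03, 4.64 and 2.23 FPKM in nuclei at day 0, and in cytoplasm 7.26, 7.13 and 7.41 FPKM at day 12, against 7.37, 7.85 and 7.51 FPKM at day 0. The nuclear groups did not overlap, but neither difference was called (0.55 ± 0.22 SE, adjusted p = 0.0702 in the nucleus and -0.06 ± 0.22 SE, adjusted p = 0.889 in the cytoplasm). Without the libraries that stood apart the nuclear difference was 0.19 (adjusted p = 0.0585). With median-of-ratios scaling it was 0.61 (adjusted p = 0.0451). Without replicate 1 of nucleus day 0 it was 0.73 (adjusted p = 0.0289), and without replicate 2 of that group 0.68 (adjusted p = 0.045).

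Dnmt3b had 21.2, 9.82 and 11.4 FPKM in nuclei at day 12, against 21.0, 23.7 and 6.06 FPKM in nuclei at day 0, where the library standing apart in each group sets the overlap. The nuclear difference was -0.12 ± 0.43 (SE, adjusted p = 0.845) with all libraries and -1.04 (adjusted p = 4.24e-05) without them; without replicate 3 of nucleus day 0 alone it was -0.72 (adjusted p = 0.0476). In cytoplasm, where no library stood apart, Dnmt3b had 38.8, 35.4 and 37.3 FPKM at day 12, against 44.7, 53.3 and 48.9 FPKM at day 0, without overlap. The cytoplasmic difference of -0.39 ± 0.43 (SE) was not called in the fit that shares its spread with the nuclear libraries (adjusted p = 0.537). It was called with only the cytoplasmic groups fitted (adjusted p = 0.00248) and without the libraries that stood apart (adjusted p = 0.00294).

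Dnmt3l had 14.9, 13.7 and 13.5 FPKM in nuclei at day 12, against 29.5, 27.02 and 31.7 FPKM in nuclei at day 0. In cytoplasm it had 28.4, 28.6 and 27.9 FPKM at day 12, against 66.6, 63.1 and 58.8 FPKM at day 0. Both gaps are far wider than the spread of the replicates. The change was -1.04 ± 0.09 (SE, adjusted p = 3.21e-05) in the nucleus and -1.13 ± 0.09 (SE, adjusted p = 1.29e-05) in the cytoplasm, called under each of the 23 alternatives run for either.

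Tet1 had 106, 45.1 and 54.5 FPKM in nuclei at day 12, against 59.4, 63.5 and 24.2 FPKM in nuclei at day 0. Its nuclear difference was 0.50 ± 0.37 (SE, adjusted p = 0.308), and it took the other sign without the libraries that stood apart, -0.31 (adjusted p = 0.0492). In cytoplasm it had 26.1, 24.3 and 24.4 FPKM at day 12, against 32.3, 26.3 and 32.4 FPKM at day 0 (-0.27 ± 0.37 SE, adjusted p = 0.626), called with only the cytoplasmic groups fitted (adjusted p = 0.0283) and without the libraries that stood apart (adjusted p = 0.0342). Tet2 had 20.0, 13.6 and 14.5 FPKM in nuclei at day 12, against 12.5, 15.7 and 5.67 FPKM in nuclei at day 0, and in cytoplasm 10.8, 9.74 and 10.8 FPKM at day 12, against 12.0, 11.1 and 10.7 FPKM at day 0. Neither was called (adjusted p of 0.142 and 0.829). Without replicate 2 of nucleus day 0 the nuclear difference of Tet2 was 0.86 (adjusted p = 0.0322), and without the 3 libraries that stood apart it was 0.00 (adjusted p = 0.994).

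Tet3 had 3.68, 2.41 and 2.36 FPKM in nuclei at day 12, against 2.64, 2.61 and 0.819 FPKM in nuclei at day 0 (0.48 ± 0.29 SE, adjusted p = 0.224). That difference took the other sign without the libraries that stood apart, -0.11 (adjusted p = 0.318). In cytoplasm it had 2.06, 2.13 and 2.09 FPKM at day 12, against 0.996, 0.847 and 0.917 FPKM at day 0, a gap that exceeds the spread of either group. The cytoplasmic rise was 0.87 ± 0.29 (SE, adjusted p = 0.0426). It was called under 11 of 23 alternatives, with an adjusted p of 1.16e-05 without the libraries that stood apart and of up to 0.127 with no filter on low genes.

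**Figure D4:**
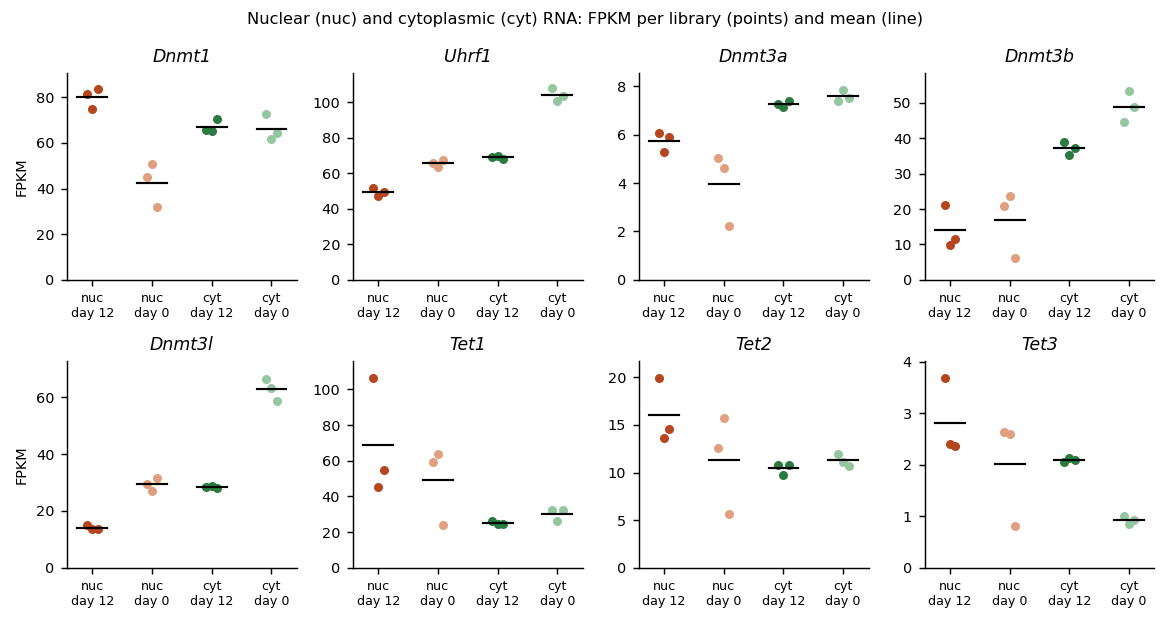
FPKM of each member in nuclear and cytoplasmic RNA (vertical axis, from 0), with nuclei at day 12 and day 0 left of cytoplasm at day 12 and day 0. Points are the 3 libraries of a group and lines their mean. Dnmt3l at day 12 lies under day 0 in both fractions, at 13.5 to 14.9 against 27.02 to 31.7 FPKM in nuclei.

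Within a day the fractions themselves differed. At day 0 Dnmt1, Uhrf1, Dnmt3a, Dnmt3b and Dnmt3l were called lower in nuclei than in cytoplasm, 5 of 8 members, where 41.8% of genes were called (60.7% of them higher in nuclei, and 39.9% after quantile normalization). The difference was -1.08 ± 0.09 (SE, adjusted p = 1.5e-05) for Dnmt3l, -1.71 ± 0.43 (SE, adjusted p = 0.0086) for Dnmt3b, -0.92 ± 0.22 (SE, adjusted p = 0.0062) for Dnmt3a and -0.66 for both Uhrf1 (SE 0.08, adjusted p = 0.000162) and Dnmt1 (SE 0.15, adjusted p = 0.00623). The Dnmt1 call was lost among protein-coding genes scaled to an equal sum (adjusted p = 0.0657). Tet1 (0.57 ± 0.37 SE, adjusted p = 0.234), Tet2 (-0.11 ± 0.29 SE, adjusted p = 0.798) and Tet3 (0.72 ± 0.29 SE, adjusted p = 0.0706) were not called. Without the libraries that stood apart all 8 were called, where 64.0% of genes were called: the same 5 were lower in nuclei, with Dnmt3b at -1.11 (adjusted p = 8.45e-06) and Dnmt3a at -0.60 (adjusted p = 6.06e-05), and Tet1 at 1.01 (adjusted p = 3.61e-05), Tet3 at 1.14 (adjusted p = 4.22e-06) and Tet2 at 0.31 (adjusted p = 0.0201) were higher.

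At day 12, 4 of 8 members were called, where 34.1% of genes were called (54.1% of them higher in nuclei, 68.4% with libraries scaled to an equal sum and 40.3% after quantile normalization). Dnmt3l at -0.99 ± 0.09 (SE, adjusted p = 4.8e-05), Dnmt3b at -1.44 ± 0.43 (SE, adjusted p = 0.024) and Uhrf1 at -0.47 ± 0.08 (SE, adjusted p = 0.0017) were lower in nuclei, and Tet1 was higher, at 1.34 ± 0.37 (SE, adjusted p = 0.0164). The Tet1 difference was 0.98 (adjusted p = 5.73e-05) without the libraries that stood apart, and 1.32 (adjusted p = 0.0506) without replicate 2 of cytoplasm day 12, and it was not called with no filter on low genes (adjusted p = 0.0658). For Dnmt3b it was -1.76 (adjusted p = 1.21e-06) without them, and the call was lost without any 1 of nuclear replicates 2 and 3 or the cytoplasmic libraries of day 12 (adjusted p of 0.0587 to 0.0817). The Uhrf1 call was lost with libraries scaled to an equal sum (adjusted p = 0.0971). Without the 3 libraries 7 members were called, where 60.0% of genes were called. Those added were Dnmt1 at 0.24 (adjusted p = 0.0404), Dnmt3a at -0.36 (adjusted p = 0.00173) and Tet2 at 0.42 (adjusted p = 0.00492), against adjusted p of 0.238, 0.284 and 0.149 with all libraries. The exception was Tet3, for which the difference was 0.33 ± 0.29 (SE, adjusted p = 0.419) with all of them.

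Whether the change from day 0 to day 12 differed between the fractions was tested as nuclear minus cytoplasmic change. With limma it was called for 0 of 8 members, where 1.33% of genes were called. At an unadjusted p under 0.05 the count was 1 of 8, Dnmt1 (0.91 ± 0.22 SE, adjusted p = 0.0704), where 16.6% of genes passed. Without the libraries that stood apart 3 of 8 were called, where 38.7% of genes were called, Dnmt1 at 0.70 (adjusted p = 0.00236), Dnmt3b at -0.65 (adjusted p = 0.00458) and Tet3 at -0.98 (adjusted p = 0.000383). Leaving out 1 library at a time, Dnmt1 was called without replicate 2 (1.047, adjusted p = 0.0423) or 3 (0.71, adjusted p = 0.0138) of nucleus day 0 or replicate 1 of nucleus day 12 (0.89, adjusted p = 0.0402), and Tet3 without replicate 3 of nucleus day 0 (-0.81, adjusted p = 0.0483).

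The fractions were then set against whole cells at day 10, the last whole cell day with low Dicer1. The days differ, so a difference between the changes cannot be told apart from time. The cytoplasmic change at day 12 minus the whole cell change at day 10 was called with limma for 0 of 8 members, where 4.83% of genes were called. At an unadjusted p under 0.05 the count was 2 of 8, Dnmt3b (1.15 ± 0.46 SE, adjusted p = 0.174) and Dnmt3l (-0.32 ± 0.10 SE, adjusted p = 0.087), where 16.9% of genes passed. With Dnmt3b at -1.54 in whole cells and -0.39 in cytoplasm, its difference was called without replicate 3 of nucleus day 0 (adjusted p = 0.0119), and 4 members (Dnmt3a, Dnmt3b, Dnmt3l and Tet3) were called without the 3 libraries, where 21.4% of genes were called. The nuclear change at day 12 minus the whole cell change at day 10 was called for Dnmt3a (1.08 ± 0.25 SE, adjusted p = 0.00514) and Dnmt3b (1.42 ± 0.46 SE, adjusted p = 0.0382), 2 of 8, where 15.7% of genes were called (16.8% of them higher, 41.0% with median-of-ratios scaling and 51.9% after quantile normalization). Without the libraries that stood apart these were 0.73 (adjusted p = 1.67e-05) and 0.50 (adjusted p = 0.00874), and Dnmt1 was called as well at 0.50 (adjusted p = 0.0366), 3 of 8 where 40.4% of genes were called. The Dnmt3b call held under 26 of 38 alternatives, and its difference was 0.82 (adjusted p = 0.0532) without replicate 3 of nucleus day 0 alone. The median of all genes in that comparison was -0.19, and 0.04 after quantile normalization.

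**Figure D5:**
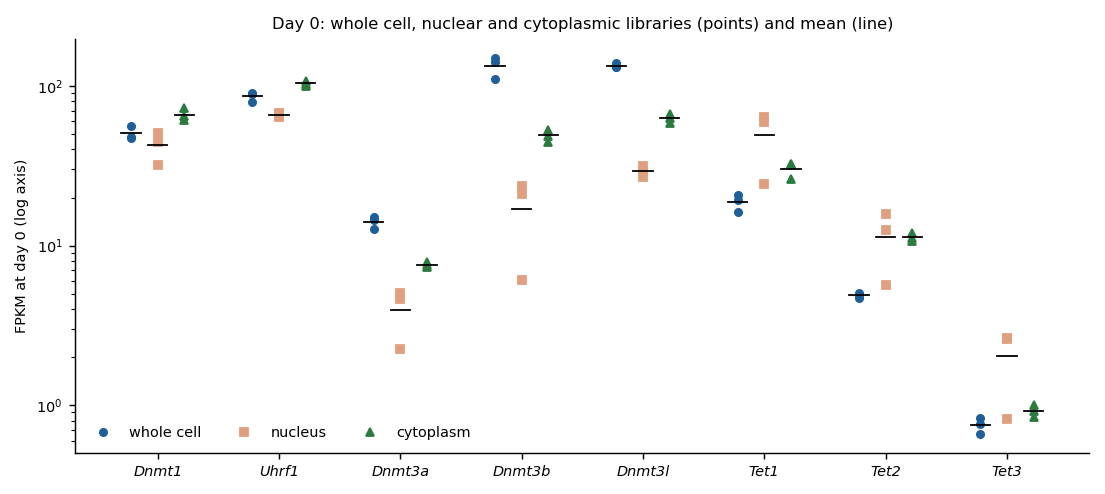
FPKM at day 0 on a log axis (vertical) for each member (horizontal axis) in whole cells, nuclei and cytoplasm. Points are the 3 libraries of an extract and short lines their mean. Dnmt3a, Dnmt3b and Dnmt3l lie higher in whole cells than in any of the 6 fraction libraries, and Tet1 and Tet2 lie lower.

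Before the loss of Dicer the whole cell libraries did not lie between the fractions for 5 of the 8 members. Dnmt3a, Dnmt3b and Dnmt3l were higher in each whole cell library of day 0 than in any of the 6 fraction libraries of day 0, which was so for 8.25% of 17609 genes: Dnmt3b had 111 to 149 FPKM in whole cells, against 6.06 to 53.3 FPKM in the fractions, and Dnmt3l 131 to 138 FPKM in whole cells, against 27.02 to 66.6 FPKM in the fractions. Tet1 and Tet2 were lower in each whole cell library, which was so for 17.8% of genes, with 16.3 to 20.8 FPKM for Tet1 in whole cells, against 24.2 to 63.5 FPKM in the fractions. The part of the greater depth of the whole cell day 0 libraries in these levels was not tested.

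Against cytoplasm at day 0, 5 of 8 members were called, where 16.9% of genes were called (32.5% of them higher in whole cells, 51.6% with median-of-ratios scaling, 56.6% after quantile normalization and 15.6% among protein-coding genes scaled to an equal sum). Dnmt3b stood at 1.44 ± 0.32 (SE, adjusted p = 0.00362), Dnmt3l at 1.08 ± 0.07 (SE, adjusted p = 8.02e-10) and Dnmt3a at 0.85 ± 0.18 (SE, adjusted p = 0.00211), higher in whole cells under each of the 38 alternatives. Uhrf1 at -0.27 ± 0.08 (SE, adjusted p = 0.0198) and Tet2 at -1.13 ± 0.31 (SE, adjusted p = 0.0158) were lower. The Uhrf1 call was lost without replicate 2 of whole cell day 0 (adjusted p = 0.125) or replicates 1 and 3 of cytoplasm day 0 (adjusted p of 0.0848 and 0.0557), and that of Tet2 without replicate 2 of whole cell day 0 (adjusted p = 0.0528) or replicate 1 of cytoplasm day 0 (adjusted p = 0.0556). Uhrf1 was also lost with median-of-ratios scaling (-0.16, adjusted p = 0.205) and equal sums (adjusted p = 0.0772). Dnmt1 at -0.39 (adjusted p = 0.0109) and Tet1 at -0.68 (adjusted p = 0.00377) were called as well without the libraries that stood apart, against adjusted p of 0.336 and 0.23 with all of them. Against nuclei at day 0, 7 of 8 were called (all but Dnmt1), where 54.0% of genes were called (31.7% of them higher in whole cells, 44.0% with median-of-ratios scaling and 59.4% after quantile normalization). There the median of all genes was -0.26, and 0.09 after quantile normalization. Dnmt3b stood 3.15 ± 0.32 (SE, adjusted p = 7.18e-08) and Tet1 -1.25 ± 0.37 (SE, adjusted p = 0.00727) from nuclei on the log2 scale, and 2.55 (adjusted p = 3.09e-13) and -1.69 (adjusted p = 3.01e-07) without the libraries that stood apart. The Tet2 call (-1.03 ± 0.31 SE, adjusted p = 0.0091) was lost without replicate 2 of nucleus day 0 (-0.74, adjusted p = 0.0685) and with only the groups compared (adjusted p = 0.0506). That of Tet3 (-0.90) was lost after quantile normalization (-0.27, adjusted p = 0.402) and with only the groups compared (adjusted p = 0.0789). That of Uhrf1 was lost with equal sums (0.31, adjusted p = 0.0584), after quantile normalization (0.20, adjusted p = 0.104) and among protein-coding genes scaled to an equal sum (0.14, adjusted p = 0.345).

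The summed level of the primed epiblast markers (Fgf5, Otx2, Lef1 and others) was 42.4 to 51.4 FPKM in whole cells at day 0, against 14.2 to 20.8 FPKM in nuclei and 18.4 to 24.0 FPKM in cytoplasm at day 0. Pou3f1 and Otx2 made up most of that sum, with 25.6 and 12.4 FPKM in whole cells. T, another of them, averaged 0.529 FPKM in whole cells, against 2.25 FPKM in nuclei and 1.55 FPKM in cytoplasm. Summed nuclear RNAs (Malat1, Neat1 and others) were 253 to 482 FPKM in nuclei at day 0, against 20.8 to 24.1 FPKM in cytoplasm. Summed cytoplasmic RNAs (Eef2, Actb and others) were still 6357 to 9426 FPKM in nuclei at day 0, against 11669 to 12543 FPKM in cytoplasm. Their part in the levels of the members was not tested.

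The order of the members at day 0 in whole cells was Dnmt3b (134 FPKM) and Dnmt3l (134 FPKM), whose libraries overlapped, then Uhrf1 (86.1), Dnmt1 (50.4), Tet1 (18.8), Dnmt3a (14.1), Tet2 (4.86) and Tet3 (0.753), each apart from the next. At day 10 Dnmt3l led (75.6 FPKM), followed by Uhrf1 (67.1), Dnmt1 (59.1) and Dnmt3b (45.2), and no neighbours in the order overlapped. In cytoplasm at day 12 Uhrf1 (68.9 FPKM) and Dnmt1 (67.2 FPKM) led and overlapped, with Dnmt3b (37.2 FPKM) above Dnmt3l (28.3 FPKM). In nuclei at day 12 Dnmt1 (80.1 FPKM), Tet1 (68.6 FPKM) and Uhrf1 (49.6 FPKM) led, and Tet1 overlapped both others. The overlap with Dnmt1 rests on replicate 1, which stood apart, where Tet1 had 106 FPKM, against 45.1 and 54.5 FPKM in replicates 2 and 3. The 3 Tet genes kept the order Tet1, Tet2, Tet3 in all 9 groups.

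Other genes of the pathway were counted in the same tests, where 27.7% of all genes tested were higher and 16.0% lower at day 10, 15.1% and 21.6% in the nucleus, and 16.0% and 16.6% in the cytoplasm. The lists are small, and no list was tested against these shares. Of 13 genes tested that read methylated or unmethylated CpG, 6 were higher and 2 lower at day 10 than at day 0 in whole cells, with a median change of 0.40. Mbd2, which binds methylated CpG and recruits a histone deacetylase complex, averaged 13.8 ± 0.362 FPKM at day 10 and 4.21 ± 0.209 FPKM at day 0 (SD, n = 3 each), a rise of 1.60 (adjusted p = 1.13e-07). Mbd1 rose by 1.18, and the zinc finger readers Zbtb4 and Zbtb38 by 1.14 and 0.91. In the fractions 7 were higher and 2 lower in the nucleus, and 6 and 3 in the cytoplasm, at day 12 against day 0.

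Recruiters and partners of the methyltransferases counted 0 higher and 6 lower of 16 in whole cells at day 10, where 43.7% of all genes were called, with a median of -0.14. Dppa3, which counters Uhrf1 in the oocyte, averaged 19.5 ± 0.939 FPKM at day 10 and 92.1 ± 5.27 FPKM at day 0 (SD, n = 3 each), a change of -2.21 (adjusted p = 2.34e-07). The chromatin remodeller Hells changed by -0.48, its activator Cdca7 by -0.49 and the related Cdca7l by -0.72. In the nucleus 3 were higher and 3 lower, and in the cytoplasm 1 and 4, with Dppa3 at -1.99 and -3.51. Base excision and demethylation genes counted 2 higher and 5 lower of 14 at day 10: Tdg, the glycosylase that removes oxidised methylcytosine, averaged 13.3 ± 0.494 FPKM at day 10 and 26.7 ± 1.31 FPKM at day 0 (SD, n = 3 each), while the stress genes Gadd45b and Gadd45g rose by 1.21 and 1.10 and the glycosylase Neil2 fell by 0.85. Both fractions counted 2 higher and 4 lower.

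Genes that supply the methyl donor or the Tet cosubstrate counted 4 higher and 4 lower of 12 at day 10. Ahcy, which clears the product of methyl transfer, averaged 45.9 ± 1.71 FPKM at day 10 and 114 ± 10.1 FPKM at day 0 (SD, n = 3 each), Gnmt and Shmt1 fell by 1.59 and 1.18, and the isocitrate dehydrogenase Idh2 rose by 0.84. The nucleus counted 3 higher and 4 lower and the cytoplasm 3 and 5. Of germline genes that promoter methylation is known to silence, 6 were higher and 1 lower of 13 tested at day 10, where 43.7% of all genes were called, with a median of 0.43 against 0.09 over all genes. Ddx4 averaged 16.8 ± 1.83 FPKM at day 10 and 8.13 ± 0.341 FPKM at day 0 (SD, n = 3 each), Taf7l rose by 1.21 and Hormad1 by 0.90, and Sycp3 changed by -0.65. Each fraction counted 2 higher and 2 lower of 14. The median of these germline genes was -0.31 in nuclei and 0.23 in cytoplasm, against -0.10 and -0.01 over all genes. In whole cells at day 8 it was 0.05, against 0.06 over all genes. Of 9 E2f and pocket protein genes, among them the miR-290 target Rbl2, 5 were higher and 1 lower at day 10; Rbl2 rose by 1.28, Rb1 by 0.79, E2f6 by 0.71 and E2f2 by 0.64. The nucleus counted 2 and 2 and the cytoplasm 4 and 1.

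Markers of other cell states were counted in the same way, where 27.7% of all genes tested were higher and 16.0% lower at day 10. No marker list was tested against these shares. At day 10 against day 0, 4 of 6 primed epiblast markers tested were lower and none higher, with a summed level of 16.5 to 21.1 FPKM at day 10 and 42.4 to 51.4 FPKM at day 0; Otx2, Fgf5 and Lef1 fell by 2.02, 1.49 and 1.23. Fibroblast and smooth muscle markers counted 6 higher and 1 lower of 8. Their sum was 837 to 858 FPKM at day 10 and 128 to 156 FPKM at day 0. Acta2 and Vim were higher by 3.18 and 2.66, and the lowest change among the 8 was -1.83. In nuclei at day 12 against day 0 they counted 2 higher and 5 lower, where 15.1% of all genes were higher and 21.6% lower. Their median change there was -0.73. In cytoplasm they counted 4 higher and 1 lower, where 16.0% and 16.6% of all genes were. In the libraries labelled day 12 their sum was 227 to 265 FPKM. Trophoblast markers counted 6 higher and 1 lower of 9. Their sum was 523 to 558 FPKM at day 10 and 151 to 201 FPKM at day 0. In the libraries labelled day 12 it was 370 to 412 FPKM. Endoderm markers counted 4 higher and 0 lower of 8. Their sum was 68.3 to 72.1 FPKM at day 10 and 32.9 to 35.1 FPKM at day 0. In the libraries labelled day 12 it was 29.3 to 34.2 FPKM. Of 11 endoderm markers listed, 4 reached 1 FPKM at day 10 and 3 at day 0, so few genes carry these sums. Ttr was at 0 in all 3 libraries of day 10. Neuroectoderm markers counted 2 higher and 1 lower of 5. The embryonic stem cell markers counted 2 higher and 2 lower of 10, with 2424 to 2613 FPKM at day 10 and 2519 to 3148 FPKM at day 0. Their part in the changes of the members was not tested.

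The genes with the most similar profile over the 15 whole cell libraries were sought among 10371 genes by Pearson correlation of log2(FPKM + 0.5), as a description. Libraries share their day, depth and RNA length profile. Dnmt3b was most like Sema6a (r = 0.94), Eif2s3x and Ice2, and Dnmt3l most like Lef1 (r = 0.93), Rcbtb1 and Dll3. Dnmt3a was most like Acsl4 (r = 0.95), Cpsf6 and Papola, and Uhrf1 most like Sgf29 (r = 0.92), Miip and Fam53a. Dnmt1 was most like Snrnp200 (r = 0.98), Prpf8 and Ubr2, Tet1 most like Prrc2c (r = 0.97), Herc2 and Ep300, and Tet2 most like Dcaf1 (r = 0.98), Gse1 and Dido1, all with replicate 3 of day 4 among the points. Tet3 stayed under the minimum of 2 FPKM.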

How the data were processed

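Each file holds 1 FPKM value per gene for a library, deposited by the authors, per the file headers. For software the submitters' processing notes give TopHat2 (2.0.9), Cufflinks (1.3.0) and mm9 without roles. The annotation, the strand setting and the treatment of multiply mapped fragments were not given in the sources used here. The 27 libraries were grouped by their labels. limma 3.58.1 (R 4.3.3; eBayes with a trend, Benjamini-Hochberg threshold 0.05) was applied to log2(FPKM + 0.5), keeping genes that averaged 0.5 FPKM or more in any group of the fit. One fit held the 15 whole cell libraries, another the 12 fraction libraries, and a further fit all 27, for comparisons across extracts. Simulated data with known changes were used to check the fits. Of the 38123 identifiers 36253 had a symbol. Gene models and 3′ UTRs came from GENCODE M21 (GRCm38) and microRNAs from RefSeq, and no mm9 coordinate was used.

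The members, gene lists and tests were chosen with earlier results of these data known. Named are all 8 members, Dicer1, up to 4 genes per pathway list with the largest change among those called at day 10, and the 3 genes most alike each member. Alternatives were pseudocounts of 0.1 and 1, a filter of 1 FPKM or none, 4 scalings (equal sum, median of ratios, quantile, protein-coding genes at equal sum), a replicate block, a fit of the compared groups alone, and leaving out each library. Added after seeing the data were fits without the libraries labelled day 12 or without the 3 that stood apart, and the comparisons of whole cells with fractions at day 0.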

Additional observations from a re-analysis of the deposited data

Results flagged for a closer look

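The change of Dnmt3a from day 0 differed between nuclei at day 12 and whole cells at day 10 by 1.08 on the log2 scale (limma adjusted p = 0.00514): it was 0.55 in nuclei and -0.54 in whole cells. For Dnmt3b the same difference was 1.42 (limma adjusted p = 0.0382), from -0.12 in nuclei and -1.54 in whole cells. Both were marked because the test of the difference itself passed. The Dnmt3b difference was 0.50 (adjusted p = 0.00874) without the 3 libraries that stood apart and 0.82 (adjusted p = 0.0532) without replicate 3 of nucleus day 0 alone. With only the groups compared it was not called (adjusted p = 0.18), nor was that of Dnmt3a (adjusted p = 0.0558). The days and the extracts differ together here, and their parts cannot be told apart.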

How the results depend on the processing

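Of 45 member changes called in the fits, 24 were called under every alternative run and 0 changed sign; of 38 called nowhere, 21 changed sign. Whole cell day 4 was least stable, with 2 members called, 1 with no filter or median-of-ratios scaling, and 0 with equal sums, quantile normalization, protein-coding genes scaled to an equal sum, only the groups compared, or without the libraries labelled day 12. Equal sums, of all or of protein-coding genes, gave 2 at day 10 (4 in the fit), and only the groups compared gave 6. For labelled day 12 against day 10 (3 in the fit) equal sums gave 1, and only the groups compared gave 5. Cytoplasm day 12 against day 0 (3 in the fit) gave 5 with only the groups compared. Nucleus against cytoplasm at day 12 (4 in the fit) gave 2 with no filter, equal sums or protein-coding genes. The cytoplasmic minus whole cell change (0 in the fit) gave 1 with no filter and 5 with only the groups compared, and the nuclear minus whole cell change (2 in the fit) gave 1 with no filter, equal sums, quantile normalization or protein-coding genes and 0 with only the groups compared. Without the 3 libraries that stood apart the counts were 5 for labelled day 12 against day 10, 8 for the F-test, 5 in nuclei, 5 in cytoplasm, 8 and 7 between fractions at days 0 and 12, 3 for the nuclear minus cytoplasmic change and 4 for the cytoplasmic minus whole cell change.

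Leaving out 1 library at a time gave 0 to 3 members at day 4, 3 to 4 at day 8, 4 to 5 at day 10, 3 to 4 for labelled day 12 against day 0, 3 to 5 for it against day 10 and 4 to 8 for the F-test. It gave 3 to 5 in nuclei, 2 to 3 in cytoplasm, 5 to 7 and 2 to 7 between fractions at days 0 and 12, 0 to 2 for the nuclear minus cytoplasmic and the cytoplasmic minus whole cell change, 1 to 3 for the nuclear minus whole cell change, 3 to 5 for whole cells against cytoplasm and 6 to 7 against nuclei. The Dnmt3b change in nuclei took the other sign with equal sums (0.0368) and protein-coding genes (0.0034), and ranged from -0.72 to 0.22 with 1 library left out. The Tet1 change in nuclei was -0.31 without the 3 libraries. Between fractions at day 0 Tet2 ranged from -0.39 to 0.31 with 1 library left out and was 0.31 without the 3. The Dnmt3b nuclear minus cytoplasmic change ranged from -0.33 to 0.61 with 1 library left out and was -0.65 without the 3. The cause of these shifts was not tested.

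With the replicate block 0 members were called at day 4 and 4 in the F-test, and the counts of the other comparisons equalled those of the fits. Same-numbered libraries deviated together (r over 0.1) in 5 of 30 whole cell pairs and 5 of 18 fraction pairs, so the numbers were not taken as pairs.

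Counts over all genes moved by more than 1.5 times in these cases. Day 4 had 1071 genes in the fit, 456 among protein-coding genes, 438 with only the groups compared and 1721 without its replicate 3. Labelled day 12 against day 0 had 2170, then 1156, 3793 and 4674 under the same settings, and 1062 to 4674 with 1 library left out. Nuclei had 6281, 2112 with only the groups compared and 9613 without the 3 libraries; cytoplasm had 5574, 9841 and 10114. Between fractions day 0 had 7152 and 10885 without the 3, and day 12 had 5837 and 10197. The nuclear minus cytoplasmic change had 227, 18 with equal sums, 131 after quantile normalization, 78 among protein-coding genes, 53 with the replicate block, 24 to 1699 with 1 library left out and 6580 without the 3. The cytoplasmic minus whole cell change had 851, 422 among protein-coding genes, 3952 with only the groups compared, 545 to 1392 with 1 library left out and 3759 without the 3. The nuclear minus whole cell change had 2770, 1471 with only the groups compared and 7074 without the 3. Whole cells against cytoplasm had 2971, 6924 with only the groups compared, down to 1907 with 1 library left out and 7390 without the 3. The median of all genes at day 10 was 0.09 in the fit, 0.17 with equal sums and -0.08 after quantile normalization, and between fractions at day 0 it was 0.12 and -0.11 after quantile normalization. Read totals were not used here, so counting error could not be separated from the spread of replicates, and low values such as those of Tet3 are the least certain.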
